A study of Mus musculus with 8 samples.

Results

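The N-methyl-D-aspartate (NMDA) receptor subunit genes were followed through 3 lists of open-chromatin peaks from mouse granule neuron progenitors (GNPs). The members were Grin1, Grin2a, Grin2b, Grin2c, Grin2d and Grin3a, given by name, and a peak was counted for a member when it overlapped the gene body or the 10 kb on either side of it in the mm10 GENCODE annotation. This gave 86 of the 152984 peaks of the WT list, 66 of the 106974 peaks of the het list and 101 of the 174407 peaks of the mutant list, or 253 of 434365 peaks in all. The rule used position alone and no measured value.

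Open DNA was mapped by ATAC-seq (the Tn5 transposase cuts and tags DNA that nucleosomes leave bare) in GNPs taken by Percoll gradient from cerebella of mice at postnatal day 7. The WT cells carried floxed Chd7 alleles and no Cre (Chd7 f/f, 3 libraries), the mutant cells were Atoh1-Cre::Chd7 f/f (3 libraries), and the het cells were Atoh1-Cre::Chd7 f/+ (2 libraries). Chd7 encodes an ATP-dependent nucleosome remodeller, and the comparison asks where open chromatin differs when it is lost from granule cell progenitors. Atoh1-Cre acts in the Atoh1 lineage, and the study considers that it probably recombines less efficiently in the posterior lobe. The sex of the pups was not distinguished, and the WT and mutant replicates are described as technical. The labels give the strain as C56Bl6/J, whereas the methods name another C57BL/6 substrain.

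Each list had been called on the pooled libraries of its genotype, so no value here has a replicate error, no difference was tested against a spread between libraries, and n is 1 pooled list per genotype. The WT pool held 50394313 tags, the mutant pool 51030229 and the het pool 30923002. Reads of WT and mutant were used without a shift, with fragment lengths of 90 and 88 bp and tag sizes of 107 and 76 bp. The het list came from another alignment, with tags extended to 200 bp, so its heights are not on the scale of the others. Strength in het is therefore given as a rank, the percentage of peaks of the same list whose -log10 q is at or below that of the peak, so that a rank near 100 is among the strongest of its list. The het list held fewer weak peaks: 76.4% had a -log10 q of at least 5, against 62.1% in WT and 62.8% in mutant. Equal ranks in different lists therefore do not mean equal strength. Promoters of granule progenitor markers such as Atoh1 and Pax6 had a peak within 1 kb of a start site for 8 of 9 genes in WT, 8 in het and 9 in mutant. So did 4, 4 and 3 of 5 Purkinje cell markers, 4 of 5 astrocyte and 4 of 5 oligodendrocyte markers in every list, 4, 3 and 4 of 5 interneuron markers, 4 of 4 mature granule neuron markers in every list, 1, 0 and 0 of 4 microglial markers, and 2 of 4 endothelial markers in every list. Accessible promoters of this kind do not separate the cell types. In such bulk material fewer cells of a type and fewer open sites per cell cannot be told apart. Chd7 itself had 32 WT, 23 het and 40 mutant peaks, and these do not check the deletion, whose position was not located in the lists.

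NMDA receptors are glutamate-gated cation channels that need glutamate and a co-agonist, glycine or D-serine, together with depolarization, to open. A receptor is an assembly of obligatory GluN1 subunits, encoded by Grin1, with GluN2 subunits (Grin2a to Grin2d), which bind glutamate and set the channel's kinetics, or with GluN3 subunits (Grin3a), which bind glycine and lower calcium entry. Cerebellar granule cells are a textbook case of subunit switching: Grin2b is used in the migrating and immature cell, while Grin2a and above all Grin2c follow as the cell matures and receives mossy fibre input. Grin2d and Grin3a are mostly genes of early life in the brain.

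The DNA immediately upstream of the outermost annotated start of 5 members is shown first, because the genes differ in whether a peak covers it. Each run is 150 bases, 5′ to 3′ on the gene's strand, from the GRCm38.p6 genome. Capitals mark any of 8 motifs searched on both strands: the E-box forms CAGCTG and CAGATG, the Zic motif CAGCAGG, the nuclear factor I (NFI) core TTGGCA, the GC box GGGCGG, the left part of the RE1 element TTCAGCACC, the CRE TGACGTCA and the AP-1 motif TGANTCA.
Grin1, chr2:25319188-25319337, minus strand: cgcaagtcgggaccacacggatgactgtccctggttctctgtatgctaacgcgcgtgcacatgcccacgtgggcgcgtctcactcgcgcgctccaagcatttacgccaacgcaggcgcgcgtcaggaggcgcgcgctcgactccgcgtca
Grin2a, chr16:9995561-9995710, minus strand: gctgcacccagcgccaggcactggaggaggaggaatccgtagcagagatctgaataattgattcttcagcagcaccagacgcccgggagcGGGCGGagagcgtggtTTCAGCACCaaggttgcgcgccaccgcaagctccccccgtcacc
Grin2b, chr6:136173512-136173661, minus strand: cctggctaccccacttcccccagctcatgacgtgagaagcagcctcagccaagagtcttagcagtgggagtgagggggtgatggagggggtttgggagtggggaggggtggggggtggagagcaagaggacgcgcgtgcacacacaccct
Grin3a, chr4:49845745-49845894, minus strand: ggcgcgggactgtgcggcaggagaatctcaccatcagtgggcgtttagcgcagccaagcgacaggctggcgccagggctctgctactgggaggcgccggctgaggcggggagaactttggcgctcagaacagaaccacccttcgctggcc
Grin2c, chr11:115267244-115267393, minus strand: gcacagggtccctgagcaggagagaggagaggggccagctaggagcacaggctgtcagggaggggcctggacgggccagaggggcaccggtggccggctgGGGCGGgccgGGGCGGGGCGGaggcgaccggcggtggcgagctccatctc
The windows of Grin2b and Grin3a lay wholly, and those of Grin1 and Grin2a mostly, under a WT peak. The Grin2c window lay under no peak of any list, although it holds 3 GC boxes, of which the last 2 share a base. The same stretch upstream of the first GENCODE basic start of Grin2d, not printed, also lay under no peak and held none of the 8 motifs. The Grin2a window holds a GC box and the RE1 left part, a piece of the element bound by the neuronal gene repressor REST. Over the same 150 bases of 32851 RefSeq promoters, 28.6% held a GC box and 0.158% the RE1 left part. None of the 8 motifs was found in the windows of Grin1, Grin2b and Grin3a, which says only that these letters are not there.

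Strong peaks away from the start sites are shown as the 201 bases centred on the WT summit, again on the gene's strand, for the strongest such peak of 3 members.
Grin2a upstream, chr16:10005622-10005822, minus strand: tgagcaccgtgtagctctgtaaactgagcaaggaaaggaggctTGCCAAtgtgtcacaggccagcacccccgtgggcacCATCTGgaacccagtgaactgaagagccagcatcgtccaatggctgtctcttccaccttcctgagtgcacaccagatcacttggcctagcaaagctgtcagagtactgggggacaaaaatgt
Grin2b intron, chr6:135912237-135912437, minus strand: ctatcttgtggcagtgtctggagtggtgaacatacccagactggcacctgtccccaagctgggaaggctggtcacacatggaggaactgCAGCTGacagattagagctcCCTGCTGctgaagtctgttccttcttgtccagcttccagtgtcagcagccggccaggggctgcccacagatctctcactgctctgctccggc
Grin3a intron, chr4:49813959-49814159, minus strand: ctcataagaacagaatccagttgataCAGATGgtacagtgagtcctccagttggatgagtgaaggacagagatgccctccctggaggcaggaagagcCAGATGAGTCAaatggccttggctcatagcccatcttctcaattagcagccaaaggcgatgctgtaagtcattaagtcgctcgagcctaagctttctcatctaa
The E-box form CAGATG occurred in the Grin2a and Grin3a windows and the form CAGCTG in the Grin2b window, which also held a Zic motif. Such windows of all WT peaks held CAGATG in 28.6% and CAGCTG in 23.6%, and 3 printed windows do not give a rate. A Grin2d window chosen by the same rule, not printed, held GC boxes and no E-box. In the Grin3a window one CAGATG overlaps an AP-1 motif. E-boxes are the letters bound by basic helix-loop-helix factors, a family that includes Atoh1 and the NeuroD factors, and a match is not a bound site.

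Over all 6 genes, the WT list held 6.69 peaks per 100 kb against 5.61 for the assembled chromosomes. The het list held 5.14 against 3.92, and the mutant list 7.86 against 6.40. The genes were not alike in this: Grin2c held 18.4 WT peaks per 100 kb and Grin1 10.4. The Grin2c window of 38.1 kb surrounds a gene of 18.1 kb, and 2 of its 7 WT peaks overlapped the gene body, against 4 of 5 for Grin1. Grin3a lay below the chromosomes in each list (WT 4.41, het 2.94, mutant 5.39), as did Grin2a in WT (5.36) and mutant (6.25). Summits lay mostly in introns: 60 of 86 WT, 47 of 66 het and 76 of 101 mutant summits. Within 1 kb of a start site of the gene itself lay 8, 6 and 9 summits. These counts depend on the 1 kb limit and on how peaks were split. The summit of 1 shared Grin2d peak lay 1004 bp from a start in WT, 1009 bp in het and 942 bp in mutant. The Grin1 and Grin2b promoters were split into more peaks in mutant than in WT, and that of Grin2a into fewer. The start sites of neighbouring genes took 5, 3 and 6 summits.

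**Figure D1:**
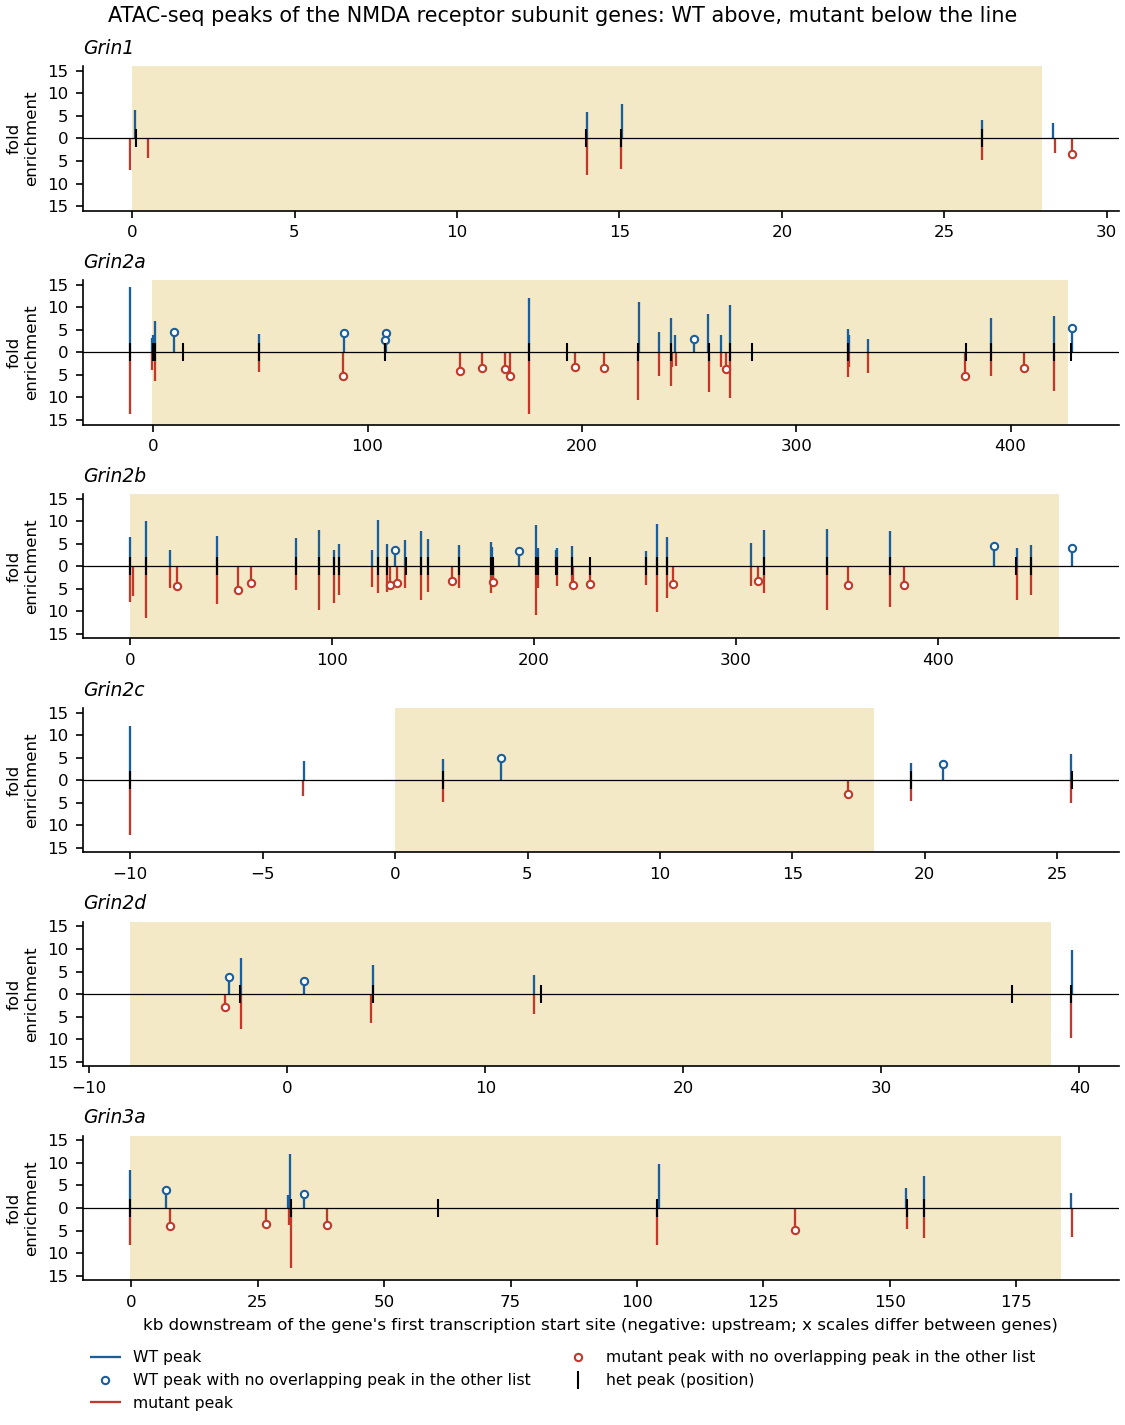
Peaks of the 6 genes by the position of the summit, in kb downstream of the first GENCODE basic start site (x axis, a scale for each gene, gene body shaded), with MACS2 fold enrichment on the y axis, WT above and mutant below the line; open circles mark peaks without an overlapping peak in the other of these lists and black ticks the positions of het peaks. Grin2b holds the most peaks, 35 in WT and 44 in mutant, and the tall bars of WT recur below the line.

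The obligatory subunit gene Grin1 (chromosome 2, 25291181 to 25319187, minus strand, 28.0 kb) had 5 WT, 4 het and 7 mutant peaks. Its promoter peak in WT (25318605 to 25319297) had 20 tags at its summit, and the strongest overlapping mutant peak had 22. Ranks were 65.2 for WT, 60.1 for het and 70.2 for mutant, where the same stretch was called as 2 peaks. The Grin1 promoter was thus open in all lists at a middling rank. It was not the strongest site of the gene in WT and mutant. An exon peak 14.0 kb downstream had 24 tags in WT and 30 in mutant, with ranks of 66.2, 59.3 and 79.8 in WT, het and mutant. An intron peak 26.2 kb downstream had 19 tags in WT and 22 in mutant, with ranks of 45.2, 45.7 and 58.0 in the same order.

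Grin2b (chromosome 6, 135713233 to 136173511, minus strand, 460.3 kb), the subunit gene of immature granule cells, had the most peaks, with 35 in WT, 29 in het and 44 in mutant. Its promoter was covered by 1 WT peak of 1632 bp (136172187 to 136173818) with a summit pileup of 41 tags and a rank of 81.3. In mutant this stretch was called as 2 peaks with ranks of 88.9 and 82.0, the taller with 50 tags, and in het as 1 peak with a rank of 77.8. All of these promoter summits also lay within 1 kb of a start site of the neighbouring gene Gm26653. The 3 strongest intronic peaks all ranked above the promoter in WT. They lay 261.2, 7.87 and 200.9 kb downstream of the start, with WT pileups of 52, 43 and 39 tags and mutant pileups of 56, 50 and 38 tags. All of them had a het peak, at ranks of 94.8, 89.3 and 85.8. The intronic region at 261.2 kb is the Grin2b sequence printed above.

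Grin2a (chromosome 16, 9567898 to 9995560, minus strand, 427.7 kb), which rises later than Grin2b, had 24 WT, 18 het and 28 mutant peaks. Its strongest promoter peak in WT (9993680 to 9994320) had 42 tags in WT and 42 in mutant, with ranks of 82.9, 72.3 and 81.8 in WT, het and mutant. A weaker pair of WT peaks around the outer starts, with 23 and 19 tags, overlapped 1 mutant peak of 26 tags. The strongest peak counted for Grin2a lay 10.8 kb upstream of its first start site and entered the window by its edge alone. It had 64 tags in WT and 64 in mutant, fold enrichments of 14.5 and 13.6, and ranks of 97.8, 97.1 and 97.3 in WT, het and mutant. The introns held peaks of 42 and 41 tags in WT at 175.2 and 226.4 kb, against 42 tags each in mutant.

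Grin2c (chromosome 11, 115249169 to 115267243, minus strand, 18.1 kb), the subunit gene of mature granule cells, had no peak within 1 kb of its outermost start in any list. The single promoter peak lay at an internal start site 1.80 kb downstream, with 19 tags in WT and 18 in mutant, and its ranks were 51.5 (WT), 17.2 (het) and 53.6 (mutant). The Grin2c window nevertheless held a peak with a rank of 98.1 in WT and 98.4 in mutant, which was the promoter of the neighbouring gene Fdxr at its edge. An intronic WT peak 3.99 kb downstream (115263141 to 115263295, 19 tags, -log10 q of 7.47, rank 54.2) had no peak in mutant or het, and it was the strongest WT peak of the 6 genes without a mutant peak.

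Grin2d (chromosome 7, 45831883 to 45878378, minus strand, 46.5 kb) lies among other genes, and the strongest peaks of its window were the promoters of Grwd1, with 44 tags in WT and 44 in mutant, and Kdelr1, with 44 and 40 tags. The peak over its RefSeq start (45865971 to 45866721 in WT) had 38 tags in WT and 37 in mutant and ranks of 79.1, 71.2 and 79.3 in WT, het and mutant. That start lies under the WT peak and outside the edges of the mutant and het peaks. A weak WT peak near the first GENCODE start (45869322 to 45869616, rank 22.4) had no partner in mutant or het.

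Grin3a (chromosome 4, 49661611 to 49845744, minus strand, 184.1 kb) had the strongest promoter of the 6. Its peak spanned 49844334 to 49846068 in WT, with 72 tags in WT and 76 in mutant, and its ranks were 94.8 (WT), 96.5 (het) and 95.2 (mutant). In the introns, peaks 31.5, 104.3 and 156.8 kb downstream had 36, 35 and 28 tags in WT and 39, 31 and 26 tags in mutant. Taking the highest promoter peak of each gene, Grin3a ranked first in each list, Grin2a and Grin2b next, then the peak at the RefSeq start of Grin2d, Grin1 and last the internal start of Grin2c. With 1 pooled list per genotype, the order of neighbours cannot be set against an error, and Grin2a and Grin2b changed places between the lists.

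**Figure D2:**
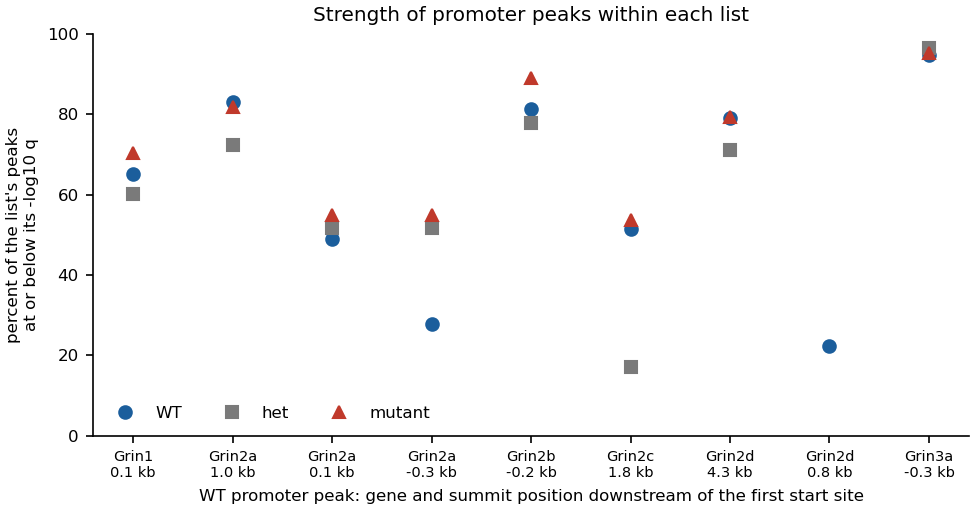
Within-list rank (y axis, percent of the list's peaks at or below the peak's -log10 q) of each WT peak near a start site of its own gene, and of the Grin2d peak over the RefSeq start, with the strongest overlapping het and mutant peak; the x axis gives the gene and the summit position in kb downstream of the first start site. Grin3a stands highest at 94.8 to 96.5, the Grin2d peak at 0.8 kb has WT alone, and 2 Grin2a peaks share the same mutant and het partner.

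The comparison of WT with mutant asks whether open sites of these genes were missing after loss of Chd7. Most were called in both lists. Of the 86 WT peaks, 16 (18.6%) had no overlapping mutant peak, against 22.8% of all WT peaks, and the 81.4% that had one carried a Wilson 95% interval of 71.9 to 88.2% for counting error over peaks alone. A WT partner was missing for 30 of the 101 mutant peaks (29.7%), against 30.7% of all mutant peaks. Both shares lay near the background. All WT peaks of Grin1 had a mutant peak (5 of 5), as did 31 of 35 of Grin2b, 18 of 24 of Grin2a, 7 of 9 of Grin3a, 5 of 7 of Grin2c and 4 of 6 of Grin2d.

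The unshared peaks were weaker than the shared ones. The median -log10 q was 3.88 for the 16 WT peaks without a mutant peak and 8.48 for the 70 with one. For mutant it was 3.58 for the 30 without a WT peak and 9.75 for the 71 with one. The strongest of the 30, in a Grin2a intron 88.3 kb downstream of the start, had 15 tags and a -log10 q of 6.95. Of the 54 WT peaks whose own -log10 q was at least 5, 92.6% overlapped a mutant peak of any strength, against 94.2% genome-wide. For the 62 such mutant peaks and WT partners of any strength, the shares were 88.7% and 88.8%.

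**Figure D3:**
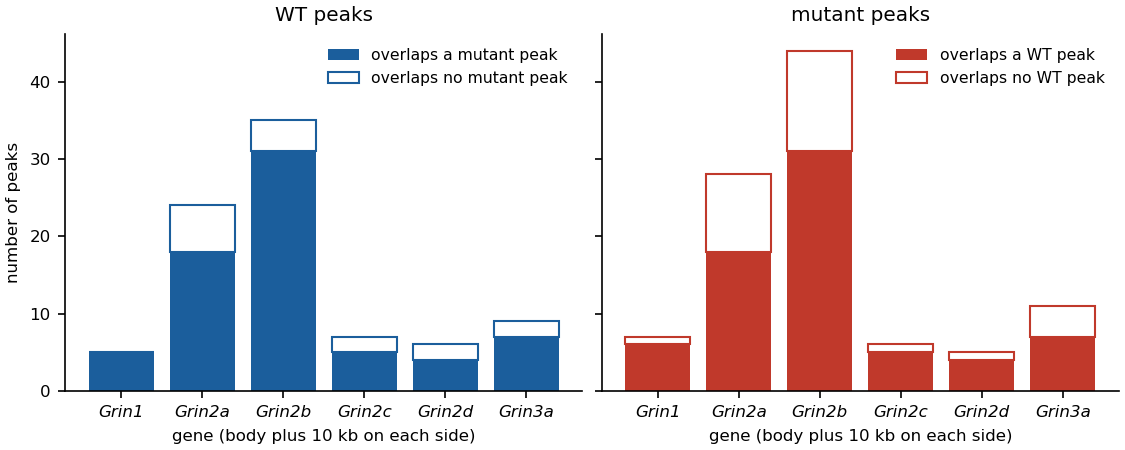
Number of peaks (y axis) of each gene in the WT list (left) and the mutant list (right), filled where a peak of the other list overlapped and open where none did. The open parts add up to 16 of 86 WT peaks and 30 of 101 mutant peaks.

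Het was compared through calls alone. Of the 66 het peaks, 9 (13.6%) had no WT peak, against 13.3% of all het peaks, and 9 (13.6%) had no mutant peak, against 10.7%. All 29 het peaks of Grin2b overlapped a mutant peak and 27 of them a WT peak. For Grin2a, 12 of 18 het peaks overlapped a mutant peak and 14 a WT peak. In the other direction, 27 WT peaks (31.4%) had no het peak, against 36.9% of all WT peaks, and 41 mutant peaks (40.6%) had none, against 41.3% of all mutant peaks. The het pool had fewer tags and another alignment, and the part of these in the missing calls was not tested.

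Joined across the 3 lists wherever peaks lay within 300 bp, the peaks formed 111 regions, of which 55 (49.5%) had a peak in every list, against 45.7% of all 190543 regions. A further 10 (9.01%) had WT and mutant peaks, against 12.7% of all regions. A mutant peak alone was found in 25 (22.5%, against 20.1%) and a WT peak alone in 12 (10.8%, against 13.3%). A peak in WT and het but not in mutant was seen for 2 regions (1.80%, against 1.66%), both of Grin2a. One lay in the 3′ flank (9566220 to 9566469 in WT, 15 tags, rank 51.3 in WT and 7.44 in het). The other lay in an intron 108.5 kb downstream of the start, with 11 tags in WT and ranks of 30.6 in WT and 11.4 in het. It held another WT peak 108.1 kb downstream, with 7 tags and a rank of 0.22. The reverse, het and mutant without WT, was also seen for 2 regions (1.80%, against 3.03%), 1 each in Grin2a and Grin2b.

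**Figure D4:**
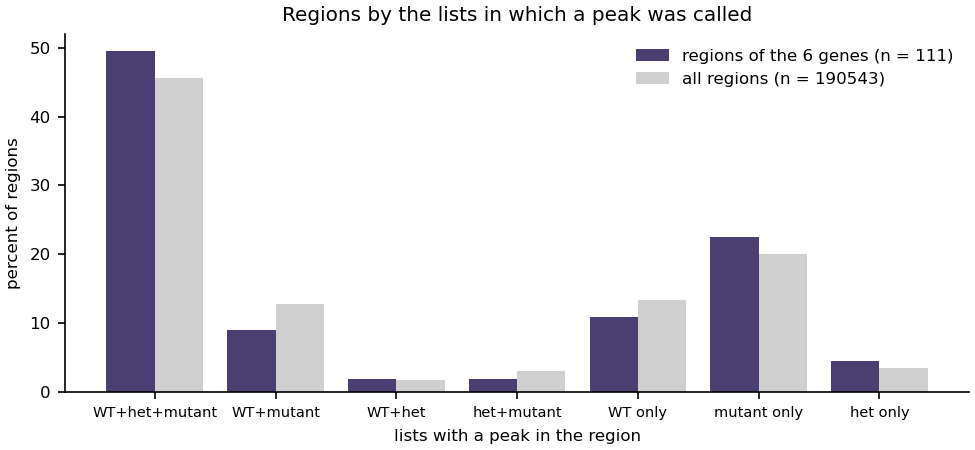
Share of regions (y axis, percent) by the lists in which they had a peak (x axis), for the 111 regions of the 6 genes and for all 190543 regions. Regions of all 3 lists are the most common class in both, at 49.5% and 45.7%.

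Peak height was then compared for the 70 WT peaks with a mutant partner, as the log2 ratio of mutant to WT pileup per 1000000 tags, less the median of all 118098 shared peaks (0.08). Where WT peaks overlapped the same mutant peak, each was counted. The median of the 70 ratios was -0.02 (order-statistic interval -0.09 to 0.06), with a range of -0.97 to 1.20. Lower by 1.5-fold or more in mutant were 3 peaks (4.29%), against 5.11% of all shared peaks. Higher by 1.5-fold or more were another 3 (4.29%), against 6.33%. By gene the median was 0.04 for Grin1, -0.09 for Grin2a, 0.06 for Grin2b, -0.17 for Grin2c, -0.11 for Grin2d and -0.02 for Grin3a. Both shares past 1.5-fold lay near the background.

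**Figure D5:**
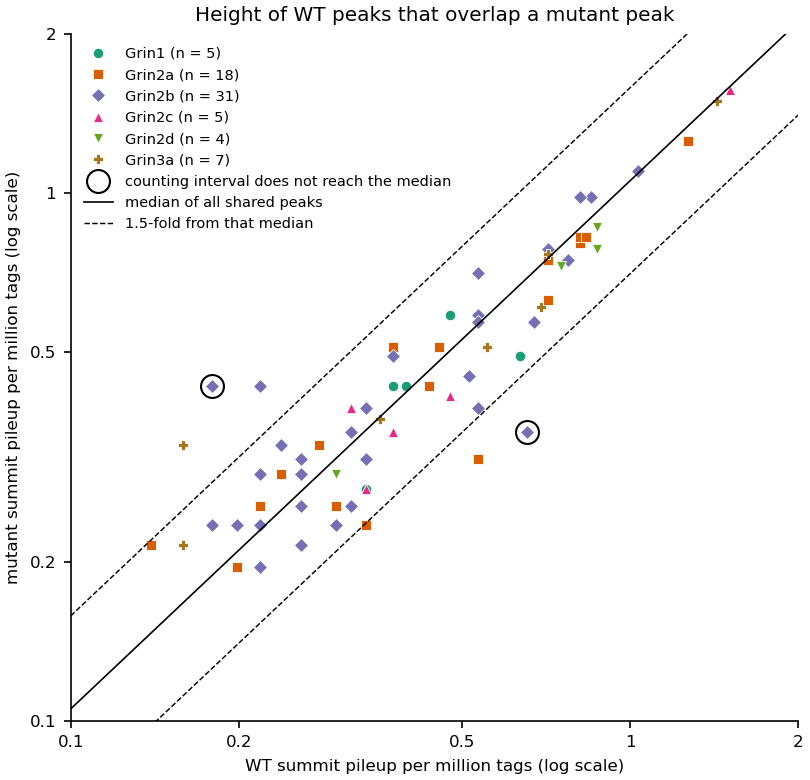
Summit pileup per 1000000 tags in WT (x axis, log scale) and mutant (y axis, log scale) of the 70 WT peaks with a mutant partner, by gene; the solid line is the median ratio of all shared peaks and the dashed lines lie 1.5-fold from it. Of the peaks, 6 lie outside the dashed lines, and circles mark the 2 whose counting interval does not reach the median.

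For 2 peaks, both in introns of Grin2b, the counting interval of the ratio did not reach the genome's median. This was 1 of 70 peaks below it, against 0.796% of all shared peaks, and 1 above it, against 1.04%. The lower one (136050411 to 136050654), 123 kb downstream of the start, had 33 tags in WT and 18 in mutant, a log2 ratio of -0.97 (Clopper-Pearson 95% interval -1.88 to -0.10), with fold enrichments of 10.3 and 5.95. Its rank was 85.5 (WT), 57.4 (het) and 61.2 (mutant). The higher one (136072445 to 136072651), 100.9 kb downstream, had 9 tags in WT and 22 in mutant, a log2 ratio of 1.20 (0.02 to 2.50). Its rank was 11.8 in WT, 41.6 in het and 74.3 in mutant. These intronic peaks of a single gene thus stood on opposite sides of the median. The rank in het lay below WT and mutant at the former and between them at the latter. By -log10 q, however, het (12.4) lay between WT (24.2) and mutant (9.18) at the former. The place of het there thus depends on the measure, and neither measure is on a common scale. The intervals cover the counting of tags alone, and both peaks were picked as extremes of 70.

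The Grin2a peak with the lowest ratio (9604032 to 9604332), in an intron 390.8 kb downstream, had 27 tags in WT and 16 in mutant, a log2 ratio of -0.85 whose interval reached the median (-1.84 to 0.10), and ranks of 76.3, 57.0 and 51.6 in WT, het and mutant. The 201 bases around these 3 WT summits are printed. The Grin2b peaks were taken for their intervals, and the Grin2a peak only as the lowest ratio of its gene.
Grin2b lower in mutant, chr6:136050427-136050627, minus strand: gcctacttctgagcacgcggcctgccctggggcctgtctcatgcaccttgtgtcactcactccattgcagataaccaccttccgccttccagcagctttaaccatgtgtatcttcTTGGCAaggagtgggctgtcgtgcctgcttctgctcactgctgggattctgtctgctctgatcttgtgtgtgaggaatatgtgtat
Grin2b higher in mutant, chr6:136072536-136072736, minus strand: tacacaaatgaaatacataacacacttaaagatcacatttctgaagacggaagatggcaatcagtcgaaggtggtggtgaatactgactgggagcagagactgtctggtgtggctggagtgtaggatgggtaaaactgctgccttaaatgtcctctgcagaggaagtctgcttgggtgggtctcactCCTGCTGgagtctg
Grin2a lower in mutant, chr16:9604066-9604266, minus strand: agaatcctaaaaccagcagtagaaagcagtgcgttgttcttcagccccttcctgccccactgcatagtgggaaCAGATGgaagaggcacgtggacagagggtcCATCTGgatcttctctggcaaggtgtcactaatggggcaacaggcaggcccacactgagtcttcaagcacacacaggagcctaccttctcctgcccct
The lower Grin2b window holds 1 NFI core, the higher one a Zic motif near its end, and the Grin2a window 2 copies of CAGATG. For the higher Grin2b peak the mutant summit (136072510) lies outside the printed window, which follows the WT summit (136072636). Its ratio thus compares the tags at different positions of the same site. The remaining peaks past 1.5-fold started from few tags or lay near the limit. They were a Grin2a intron peak (17 tags in WT, 12 in mutant), a Grin2b intron peak (11 and 22 tags) and a peak in the 3′ flank of Grin3a (8 and 17 tags).

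The sequence around the summits was then compared with that of all peaks. In 201-base windows, the median GC content of the 86 WT peaks was 51.7%, as it was for all WT peaks, and ran from 47.3% for Grin3a to 61.2% for Grin1 and Grin2d. Repeats filled more than 50% of the window in 2 of 86 peaks (2.33%), against 6.43% of all WT peaks. The E-box form CAGATG occurred in 34 WT windows (39.5%, Wilson 95% interval 29.9 to 50.1%), against 28.6% of all WT peaks. This was the widest gap in percentage points in WT among the 8 motifs searched. In mutant it occurred in 33 of 101 windows (32.7%), against 27.4%, while the widest mutant gap was that of the NFI core (29 windows, 28.7% against 22.1%). In WT the form CAGCTG stood at 24.4% against 23.6%, the NFI core, unlike in mutant, at 18.6% against 21.8%, the Zic motif at 10.5% against 12.2%, the GC box at 8.14% against 11.5% and AP-1 at 6.98% against 6.24%. The RE1 left part occurred in 1 window (1.16% against 0.252%) and the CRE in 0 (against 0.565%). In WT, CAGATG was found in 28 of the 70 windows with a mutant peak and in 6 of the 16 without one.

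Other genes of the glutamatergic synapse were read in the same way. For 9 AMPA and kainate receptor subunit genes, 41 of 200 WT peaks (20.5%, against 22.8% of all WT peaks) had no mutant peak. Of their 220 mutant peaks, 61 (27.7%, against 30.7% of all mutant peaks) had no WT peak. Of their 159 shared peaks, 13 (8.18%) were 1.5-fold or more lower in mutant and 9 (5.66%) higher, beside the 5.11% and 6.33% of all shared peaks. Among them Grik2, a kainate receptor gene chosen for mention after its values were seen, had 8 of its 29 shared peaks lower and 0 higher, with a median log2 ratio of -0.19. For 21 scaffold and signalling partners, such as the PSD-95 gene Dlg4 and the kinase gene Camk2a, 100 of 528 WT peaks (18.9%) had no mutant peak and 154 of 590 mutant peaks (26.1%) no WT peak. Their 428 shared peaks had a median log2 ratio of 0.04, with 25 (5.84%) lower and 21 (4.91%) higher. Another list held 6 genes of co-agonist enzymes and transporters, such as the serine racemase gene Srr and the glycine transporter gene Slc6a9. No partner was found for 5 of their 41 WT peaks (12.2%, against 22.8%) and 3 of their 40 mutant peaks (7.5%, against 30.7%). Of their 36 shared peaks, 1 (2.78%) was lower and 5 (13.9%) higher, against 5.11% and 6.33%. Grin3b, the remaining NMDA receptor gene, had 4 WT, 2 het and 3 mutant peaks.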

How the data were processed

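The deposited files used here are 3 narrow-peak lists, which the authors called with MACS2 2.1.0.20150731 at a q-value cutoff of 0.05 on the pooled libraries of each genotype. The summit pileup is the deposited signal, in whole extended tags and without scaling for depth. The caller of the authors also gave the ratio of pileup to local background (fold enrichment, with a pseudocount of 1), and -log10 q was deposited beside it. Per the file headers, WT and mutant tags came from a STAR alignment without a shift, and het tags from a bowtie alignment with a shift, whereas the methods describe the latter for the libraries without distinction. The tags per pool set the precision. Intervals of single ratios cover the counting of tags, and those of shares and of the median the counting of peaks. None covers a spread between libraries. The study reports that duplicated reads were removed. Any PCR copies left in the counts are not independent molecules, and the intervals of single ratios may then be too narrow.

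Gene positions came from GENCODE mm10, start sites from its basic transcripts, and sequences from GRCm38.p6 and, for Grin1, Grin2c and Grin2d, the RefSeq promoter table. A partner is a peak of the other list overlapping by 1 bp or more, and the one with the highest -log10 q gave the height. Place was that of the summit, taken as own start site, other start site, exon, intron, flank. Ratios were computed per 1000000 tags and centred on all shared peaks. Named peaks were, per gene and list, those at own start sites, the 3 strongest elsewhere, the 3 strongest without a partner and the 3 largest ratios in each direction with a fold enrichment of 4 or more in WT or mutant. Peaks named outside this rule are those counted past 1.5-fold, those that overlap a start site and those in WT and het alone. One sequence window and its peak are not reported here. Overlap code was tested on simulated data. Alternatives changed the overlap, the flank, the strength limit, the neighbours' start sites and the centring. The members and lists were chosen with earlier results of these data known. Calculations used python 3.11.15, numpy 2.4.6, pandas 2.3.3, scipy 1.17.1 and pysam 0.24.0.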

Additional observations from a re-analysis of the deposited data

How the results depend on the processing

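The shares moved mainly with the overlap asked for and with peak strength. With 50% reciprocal overlap, 67.4% of WT peaks had a mutant peak and 57.4% of mutant peaks a WT peak. A het peak was found for 53.5% of WT peaks and 45.5% of mutant peaks. Shares of all peaks under this overlap are not given, so these values have no background beside them. With the counted peaks, but not their partners, limited to a -log10 q of at least 5, these shares were 92.6%, 88.7%, 88.9% and 82.3%. Over all peaks under the same limit they were 94.2%, 88.8%, 84.2% and 79.3%, in the same order. With the limit on all 3 lists, 66.7% of regions were in each of them, a share not set against all regions. The limit left 54 WT and 62 mutant peaks, while flanks of 50 kb gave 153 mutant peaks. Without centring the median log2 ratio was 0.060, positive in place of negative. With the limit on WT peaks alone, 2 shared peaks were 1.5-fold lower and 0 higher in mutant, where the limit itself removes peaks that are low in WT. The same shares over all shared peaks are not given. Of the alternative values for the whole set, 46 stayed within their interval or within 1.5 times and 14, all given above, moved. Of those for single genes, 59 stayed and 13 moved. In Grin2a, for example, WT peaks overlapped by mutant ones went from 75% to 91.7% under the limit on strength. The ratio relative to shared peaks of the same WT height was chosen after seeing the data. No paired analysis was possible because each list was called on the pooled libraries of a genotype, and leaving out single replicates could not be run for the same reason.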
